A study of Mus musculus with 8 samples.

Results

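Heart muscle itself holds no cartilage, yet transcripts of several cartilage matrix genes were counted in RNA-sequencing libraries of mouse hearts. The 9 genes described here are Acan, Col2a1, Comp, Col9a1, Col11a2, Matn1, Matn3, Hapln1 and Sox9, taken by symbol from a table of 25929 genes. All 9 were present in the table under 1 Ensembl identifier each. The list of cartilage genes was selected on FPKM values, since it was drawn up after those of these 8 libraries had been seen, and the excess of cartilage transcripts in the WT-TAC libraries is a description and cannot count as a test result. FPKM is the number of sequenced fragments divided by the length of the transcript and by the depth of the library.

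The study asked how endogenous n-3 polyunsaturated fatty acids affect the pressure-overloaded heart, and had 8 libraries, 2 independent samples in each of 4 groups. WT-Sham and WT-TAC were wild-type mice of the C57BL/6 strain, and Fat1-Sham and Fat1-TAC were their littermates with the fat-1 transgene of Caenorhabditis elegans, an n-3 fatty acid desaturase that makes n-3 from n-6 fatty acids. Mice were 3 months old at surgery. TAC is transverse aortic constriction, in which a suture narrows the aortic arch between the brachiocephalic and left carotid arteries, and sham mice had the chest opened without constriction; hearts were taken 8 weeks later. Both operations opened the thorax at the upper ribs. The promoter that drives the transgene, the sex of the mice and whether animals were pooled are not given in the sources used here. The labels name ventricular tissue, whereas the methods name whole hearts. Each library is called by its group and number, as in WT-TAC1.

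The libraries held between 14163994 and 21218331 fragments, as recovered from the FPKM values. Heart muscle genes were abundant in every library, with Myh6, the alpha myosin heavy chain, between 7406 and 17694 FPKM and Tnnt2, cardiac troponin T, between 3061 and 5895 FPKM, both lowest in WT-TAC1. Several libraries stood apart. The summed level of 6 airway club cell genes was 1522 FPKM in WT-TAC1 and 4029 FPKM in WT-TAC2, compared with 50.9 FPKM in Fat1-Sham1 and at most 3.31 FPKM in the other 5 libraries. All 6 of these genes had more than 3 fragments in WT-TAC1, WT-TAC2 and Fat1-Sham1, and 1 to 3 of them had in the others. In WT-TAC1 the sum of 5 immature thymocyte genes was 879 FPKM (0.0548 to 0.445 FPKM elsewhere), and that of 6 fast skeletal muscle genes was 139 FPKM (2.14 to 6.73 FPKM elsewhere). The sum of 4 atrial genes lay between 926 and 3542 FPKM in 5 libraries and between 16.8 and 39.1 FPKM in Fat1-Sham2, Fat1-TAC1 and Fat1-TAC2.

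In hyaline cartilage, chondrocytes lay down fibrils of type II collagen, with type IX collagen on their surface and type XI collagen in their core. Aggrecan, a large chondroitin sulfate proteoglycan, fills the space between fibrils and is bound to hyaluronan by link protein, and matrilins and COMP connect collagens with proteoglycans. SOX9 is the transcription factor that switches on most of these genes. The tissue is found in joints, ribs, the larynx, and the wall of the trachea and main bronchi, and small islands of it are known from the aortic root of mice, while in the heart SOX9 and several of the matrix genes are used in the forming valves.

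The genes lay on 9 different chromosomes (GRCm38, gene bounds of GENCODE M21), so no pair of them shared a locus. Aggrecan, Acan (ENSMUSG00000030607), spans chr7:79053483-79115099 on the plus strand. Col2a1 (ENSMUSG00000022483) is at chr15:97975602-98004695 on the minus strand, Col9a1 (ENSMUSG00000026147) at chr1:24177610-24252684 and Col11a2 (ENSMUSG00000024330) at chr17:34039437-34066685, both on the plus strand. Matn1 (ENSMUSG00000040533) is at chr4:130944385-130955475, Matn3 (ENSMUSG00000020583) at chr12:8947929-8972028, Hapln1 (ENSMUSG00000021613) at chr13:89539796-89611652, Comp (ENSMUSG00000031849) at chr8:70373558-70382066 and Sox9 (ENSMUSG00000000567) at chr11:112782224-112787760, all on the plus strand. All are annotated as protein coding, and the values refer to whole genes and do not resolve transcripts.

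RefSeq promoter windows (GRCm38.p6, 250 bases before the start) were matched for 6 of the 9 genes. The start is that of RefSeq and can differ from the GENCODE gene bounds. The windows of Acan and Col11a2 end some way before these bounds, and those of Hapln1 and the second of Col9a1 lie within them. The windows of 5 genes are shown for what stands in front of genes whose WT-TAC libraries both lay above all other libraries. They were those of Acan at chr7:79052976-79053225, Col9a1 at chr1:24177360-24177609 (the first of its 2 windows), Col11a2 at chr17:34038888-34039137, Matn1 at chr4:130944135-130944384 and Matn3 at chr12:8947679-8947928, all plus strand. Capitals mark GGGCGG, known as the GC box. They also mark the TATA box, with the letters TATAAA. All were searched on both strands.
Acan: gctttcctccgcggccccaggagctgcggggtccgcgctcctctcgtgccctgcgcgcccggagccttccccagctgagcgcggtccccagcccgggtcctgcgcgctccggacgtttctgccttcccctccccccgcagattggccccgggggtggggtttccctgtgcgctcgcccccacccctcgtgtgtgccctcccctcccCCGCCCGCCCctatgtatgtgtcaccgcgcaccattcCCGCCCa
Col9a1: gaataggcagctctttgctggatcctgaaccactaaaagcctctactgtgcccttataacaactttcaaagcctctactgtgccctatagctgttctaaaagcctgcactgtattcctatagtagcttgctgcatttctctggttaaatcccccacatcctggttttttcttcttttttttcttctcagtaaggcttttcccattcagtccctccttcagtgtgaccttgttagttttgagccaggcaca
Col11a2: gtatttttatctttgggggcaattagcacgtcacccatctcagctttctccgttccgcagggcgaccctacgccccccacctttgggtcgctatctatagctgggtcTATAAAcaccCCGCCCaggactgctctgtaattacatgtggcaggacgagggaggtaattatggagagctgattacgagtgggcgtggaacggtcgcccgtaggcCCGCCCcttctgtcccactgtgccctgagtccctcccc
Matn1: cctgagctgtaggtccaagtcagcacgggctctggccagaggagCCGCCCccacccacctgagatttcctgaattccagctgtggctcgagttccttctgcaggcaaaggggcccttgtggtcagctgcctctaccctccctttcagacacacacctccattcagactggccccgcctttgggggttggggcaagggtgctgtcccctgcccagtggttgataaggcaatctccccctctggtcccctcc
Matn3: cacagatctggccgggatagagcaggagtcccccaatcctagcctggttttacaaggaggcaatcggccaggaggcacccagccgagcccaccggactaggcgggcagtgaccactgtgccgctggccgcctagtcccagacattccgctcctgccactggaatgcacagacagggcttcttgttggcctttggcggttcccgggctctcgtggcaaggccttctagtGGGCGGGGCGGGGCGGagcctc
The Acan window, with 74.4% G and C, held 3 GC boxes, of which 2 overlap, and the Matn3 window held 3 that overlap each other. The Col11a2 window held 2 GC boxes and the letters of a TATA box, 143 bases before the start, and the Matn1 window held 1 GC box. Both windows of Col9a1 and that of Hapln1 held no GC box and no TATA box. Of all 32851 windows of this length, 32.7% held a GC box and 12.4% a TATA box. The core of the motif bound by SOX proteins, ACAAT, was found in the window of Hapln1 only, compared with 27.7% of all windows. These matches are letters in a window, not binding sites.

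Col2a1, which encodes the chain of type II collagen, was listed at 0 in WT-Sham1 and at 0.147 FPKM in WT-Sham2, and reached 0.945 FPKM in WT-TAC1 and 2.61 FPKM in WT-TAC2. In the fat-1 hearts it was at 0.0351 FPKM in Fat1-Sham1, at 0.0319 FPKM in Fat1-Sham2 and at 0 in both Fat1-TAC libraries. WT-TAC did not overlap with any other group: both WT-TAC libraries were above all others, where at most 5 fragments were found. In fragments, the 30 and 75 of the WT-TAC libraries amounted to 19.7 times the depth-adjusted number in WT-Sham (95% exact interval 8.16 to 61.8) and to at least 34.1 times that in Fat1-TAC, where a floor of 3 fragments over the group was used. Intervals and floors cover counting error only, and bulk RNA cannot tell more cells of a type from more RNA per cell.

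Col9a1, a chain of type IX collagen, was found in 1 and 4 fragments in the WT-Sham libraries, in 17 and 16 fragments in the WT-TAC libraries and in none of the 4 fat-1 libraries. Its levels were 0.0329 and 0.0877 FPKM in WT-Sham1 and WT-Sham2, and 0.399 and 0.415 FPKM in WT-TAC1 and WT-TAC2. The WT-TAC libraries were alike and above the others. A count of 0 allows up to 0.0785 FPKM of Col9a1 in the shallowest of the fat-1 libraries. WT-TAC held 6.18 times the level of WT-Sham (2.40 to 20.3).

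Col11a2, a chain of type XI collagen, was expressed in every library and so differed from the other 2 collagens. It was at 1.02 and 2.17 FPKM in WT-Sham1 and WT-Sham2, at 4.85 and 3.61 FPKM in WT-TAC1 and WT-TAC2, at 0.982 and 0.996 FPKM in Fat1-Sham1 and Fat1-Sham2, and at 1.47 and 1.17 FPKM in Fat1-TAC1 and Fat1-TAC2. The WT-TAC mean of 4.23 ± 0.874 FPKM (SD, n = 2) stood above WT-Sham (1.59 ± 0.813), Fat1-TAC (1.32 ± 0.218) and Fat1-Sham (0.989 ± 0.00983). The order of the last 3 is not resolved for WT-Sham, whose libraries lay on both sides of the Fat1-TAC libraries and above both Fat1-Sham libraries. WT-TAC had 2.49 times the fragments of WT-Sham after depth (2.09 to 2.97).

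Acan, the core protein of aggrecan, was well separated between WT-TAC and the rest. Its levels were 0.0709 and 0.199 FPKM in WT-Sham1 and WT-Sham2, 1.49 and 2.22 FPKM in WT-TAC1 and WT-TAC2, 0.0791 and 0.0206 FPKM in Fat1-Sham1 and Fat1-Sham2, and 0.0430 and 0.0664 FPKM in Fat1-TAC1 and Fat1-TAC2. The lower WT-TAC library was far above the highest of the other 6. Fat1-Sham overlapped with WT-Sham and with Fat1-TAC. Both WT-Sham libraries were above both Fat1-TAC libraries, though WT-Sham1 had only 5 fragments. In fragments, Acan had 147 and 198 in the WT-TAC libraries and between 2 and 21 in each of the others. The WT-TAC level was 12.4 times that of WT-Sham (8.33 to 19.3), 37.9 times that of Fat1-Sham (19.7 to 83.5) and 33.6 times that of Fat1-TAC (18.1 to 70.7).

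Hapln1, the link protein that ties aggrecan to hyaluronan, did not follow Acan. It was at 0.160 and 0.534 FPKM in WT-Sham1 and WT-Sham2, at 0.408 and 0.595 FPKM in WT-TAC1 and WT-TAC2, at 0 and 0.0993 FPKM in Fat1-Sham1 and Fat1-Sham2, and at 0.0520 and 0.0178 FPKM in Fat1-TAC1 and Fat1-TAC2. WT-Sham2 lay between both WT-TAC libraries, so these groups overlapped, and all 4 fat-1 libraries were below all 4 wild-type libraries. The ratio of WT-TAC to WT-Sham was 1.29 with an interval of 0.854 to 1.97, while that to Fat1-TAC was 14.1 (5.23 to 53.6), resting on 4 fragments in Fat1-TAC.

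Matn1 and Matn3, matrilins of the cartilage matrix, had the fewest fragments of the genes. Matn1 was found in 8 and 16 fragments in WT-TAC1 and WT-TAC2 (0.202 and 0.445 FPKM), in 1 fragment in Fat1-Sham2 (0.0256 FPKM) and was listed at 0 in the other 5 libraries. Matn3 was found in 1 fragment in WT-TAC1 (0.0167 FPKM) and in 6 fragments in WT-TAC2 (0.111 FPKM), and was listed at 0 in all 6 remaining libraries. A count of 0 allows up to 0.106 FPKM of Matn1 and 0.0703 FPKM of Matn3 in the shallowest library, so Matn3 in WT-TAC1 was not distinguishable from the others at this depth. Against WT-Sham, Matn1 was at least 7.49-fold higher in WT-TAC and Matn3 at least 2.18-fold higher, with the floor of 3 fragments over the group.

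Comp, cartilage oligomeric matrix protein, was by far the most abundant of the genes on the FPKM scale, which is per length. It is also made in tendon and by fibroblasts. Comp was at 12.8 and 35.4 FPKM in WT-Sham1 and WT-Sham2, at 29.4 and 34.8 FPKM in WT-TAC1 and WT-TAC2, at 10.6 and 6.02 FPKM in Fat1-Sham1 and Fat1-Sham2, and at 9.67 and 8.19 FPKM in Fat1-TAC1 and Fat1-TAC2. The highest library was WT-Sham2, not a WT-TAC library, and WT-Sham overlapped with WT-TAC, and its libraries differed 2.78-fold. The means were 24.1 ± 16.0 FPKM in WT-Sham and 32.1 ± 3.81 FPKM in WT-TAC (SD, n = 2 each), compared with 8.29 ± 3.20 and 8.93 ± 1.04 FPKM in Fat1-Sham and Fat1-TAC, which overlapped. WT-TAC held 1.21 times the fragments of WT-Sham (1.11 to 1.32 from counting error, which is far below the spread between the WT-Sham libraries) and 3.58 times those of Fat1-TAC (3.17 to 4.06).

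Sox9, the regulator of the others, was close between libraries of a group. It was at 0.922 and 0.980 FPKM in WT-Sham1 and WT-Sham2, at 1.77 and 1.64 FPKM in WT-TAC1 and WT-TAC2, at 0.666 and 0.693 FPKM in Fat1-Sham1 and Fat1-Sham2, and at 0.595 and 0.560 FPKM in Fat1-TAC1 and Fat1-TAC2. No groups overlapped, in the order WT-TAC, WT-Sham, Fat1-Sham and Fat1-TAC. The ratio of WT-TAC to WT-Sham was 1.79 (1.45 to 2.21) and that to Fat1-TAC was 2.96 (2.32 to 3.81).

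**Figure D1:**
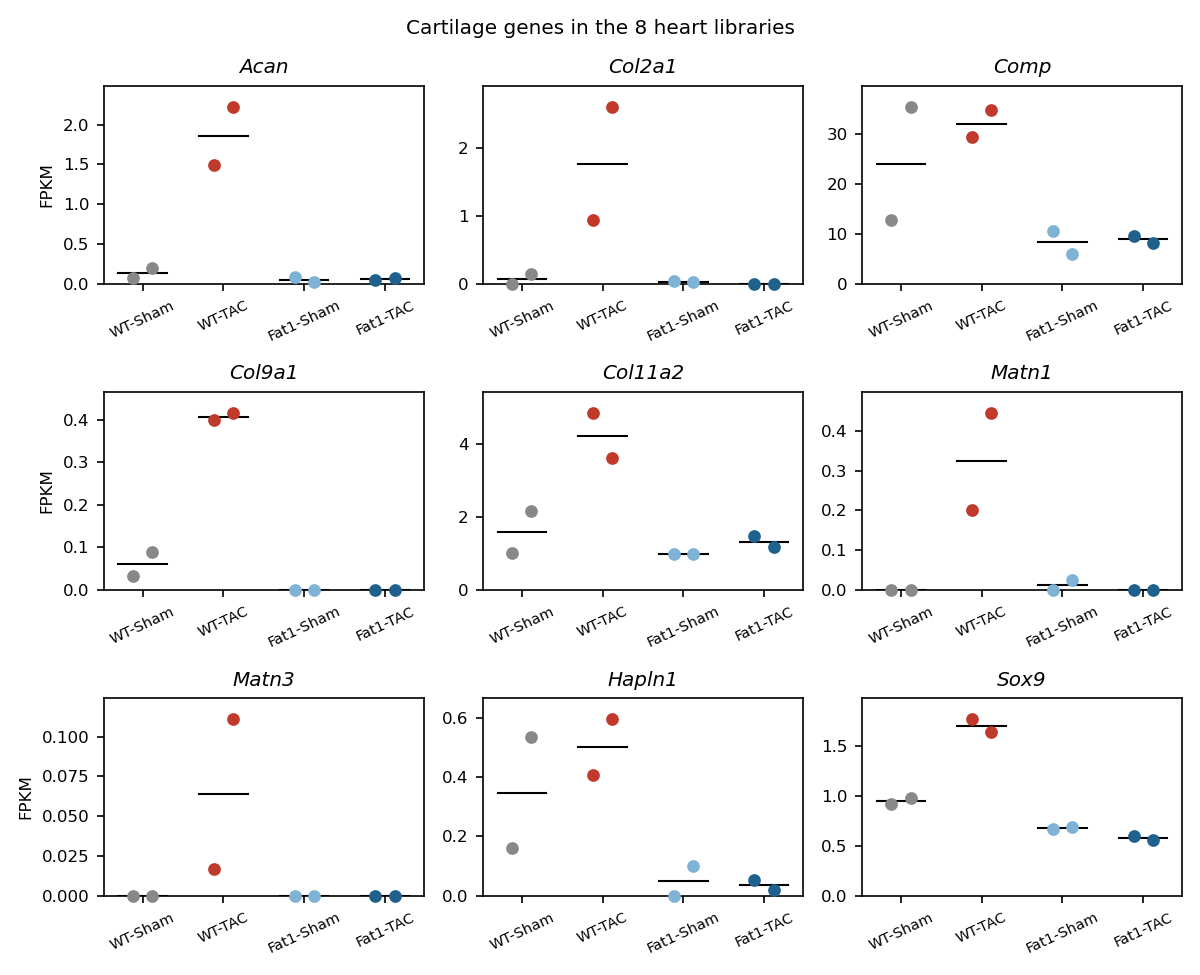
Level of the 9 cartilage genes in each library. Each point is 1 library (y axis, FPKM from 0, on a scale of its own for each gene) in its group (x axis), and the black line is the mean of the 2 libraries. Acan, Col2a1, Col9a1, Matn1 and Matn3 are near 0 outside WT-TAC, whereas Comp and Hapln1 are also high in WT-Sham2 and Sox9 is seen in every library.

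The WT-TAC libraries held 25.6% of all fragments. They held 88.5% of those of Acan (345 of 390, exact 95% interval 84.9 to 91.5%), 93.8% of Col2a1 (105 of 112, 87.5 to 97.5%), 86.8% of Col9a1 (33 of 38, 71.9 to 95.6%), 96.0% of Matn1 (24 of 25, 79.6 to 99.9%) and all 7 fragments of Matn3 (59.0 to 100%). A less uneven set followed, with 52.4% for Col11a2, 52.7% for Hapln1, 44.5% for Sox9 and 43.6% for Comp. For all listed genes with 7 fragments or more the median share was 35.4%, above the share of depth, and 5.39% of these genes had over 85% of their fragments in WT-TAC, as had 5 of the 9 cartilage genes. The mark of 85% was set after the shares were seen.

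**Figure D2:**
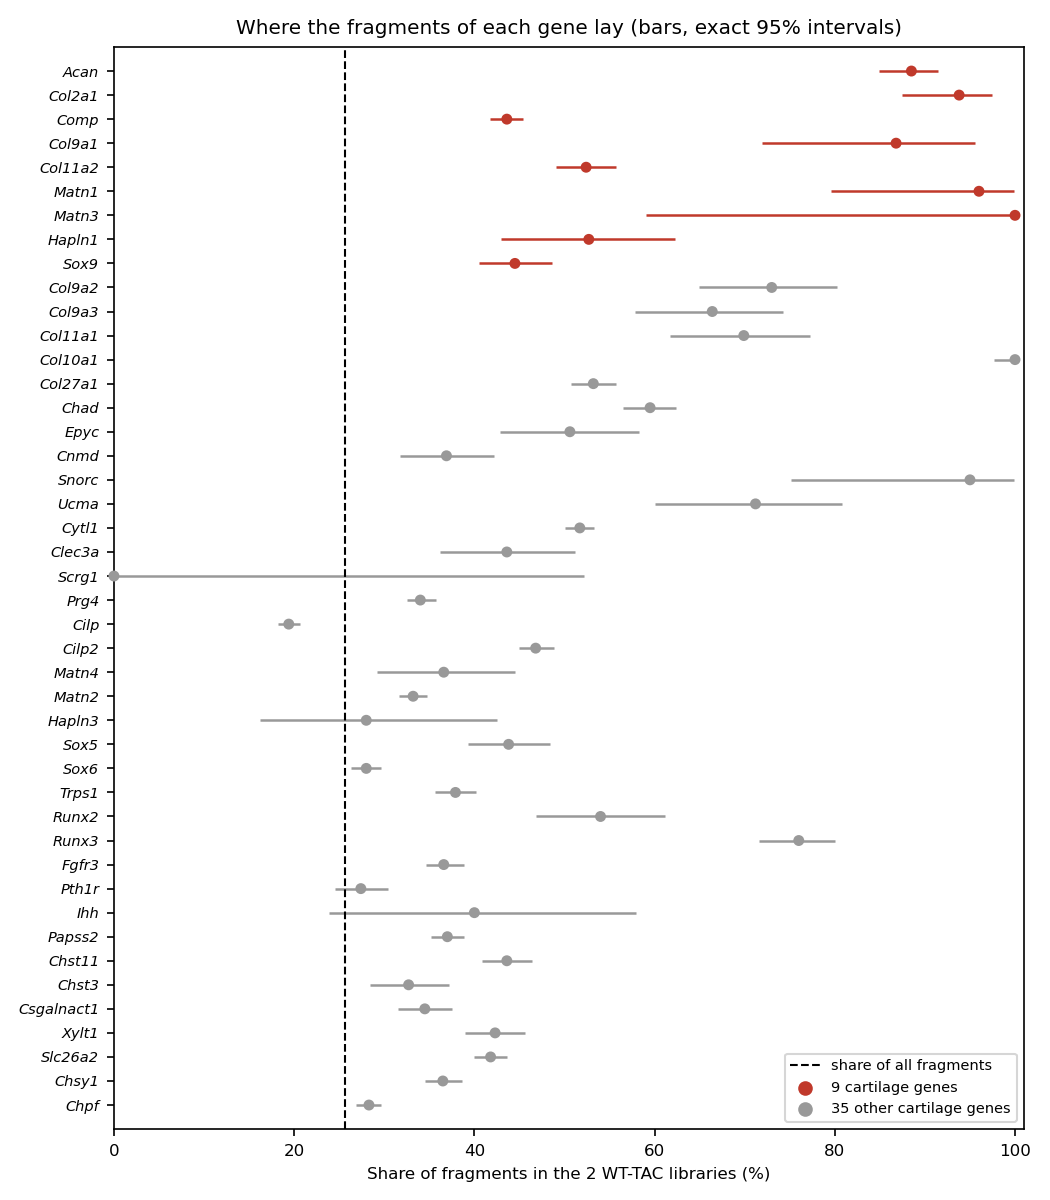
Share of the fragments of each gene that lay in the 2 WT-TAC libraries (x axis, %), with exact 95% intervals for counting error, for the 9 cartilage genes (red) and 35 other cartilage genes (grey). The dashed line is the 25.6% of all fragments that these libraries held, and Acan, Col2a1, Col9a1, Matn1 and Matn3 lie above 85%, as do Col10a1 and Snorc.

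Both WT-TAC libraries were above the other 6 for 7 of the 9 genes, all but Comp and Hapln1. This holds for 33.3% of all listed genes. After scaling by the median of ratios, in which WT-TAC1 is divided by 1.52 and WT-TAC2 by 1.11, it was again 7 genes, compared with 14.7% of all genes.

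The levels were then compared between groups with limma on log2(FPKM + 1). Genes had to reach 1 FPKM in 2 libraries, which Acan, Comp, Col11a2 and Sox9 did. Acan and Sox9 passed through the WT-TAC libraries alone and therefore had to differ. A call needed an adjusted p below 0.1 together with a change of more than 1.5-fold, the cutoffs of the study. The list was chosen with the WT-TAC levels known, so fold changes of the 9 genes that involve WT-TAC are given with their standard error, and nothing is read from their calls or p-values. The standard errors share 1 estimate of the spread over the 4 groups. On this scale the WT-TAC libraries were over 2-fold apart in 2560 genes, compared with 275 to 362 in the other groups. The errors therefore do not describe the spread within WT-TAC.

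For pressure overload in wild-type hearts, WT-TAC minus WT-Sham, the log2 fold change of FPKM + 1 was 1.32 ± 0.23 (SE) for Acan, 1.04 ± 0.28 for Col11a2, 0.56 ± 0.45 for Comp and 0.47 ± 0.20 for Sox9. The median of all 14442 genes tested was 0.39, so Sox9 and Comp lay within an SE of the shift that all genes showed. Scaling by the median of ratios moved this median to -0.02, and the log2 fold changes to 0.69 for Col11a2, 0.10 for Comp and 0.20 for Sox9, while Acan no longer passed the filter. Of the 4 genes, 1 (Acan) was called, where 0.921% of all genes were called as higher. Without the filter it was again Acan (1.10% of all genes), limma-voom on recovered fragments called none of the 4 (0.0485%), and most other settings called none. Without WT-Sham1, the fold change of Comp turned to -0.14.

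For the transgene under pressure overload, Fat1-TAC minus WT-TAC, the log2 fold change was -1.42 ± 0.23 for Acan, -1.74 ± 0.45 for Comp, -1.16 ± 0.28 for Col11a2 and -0.78 ± 0.20 for Sox9, compared with a median of -0.40 over all genes. After scaling the median was -0.002, with -1.29 for Comp, -0.81 for Col11a2 and -0.52 for Sox9. Acan was again the 1 gene called, where 1.39% of all genes were called as lower. Without the filter it was Acan too (1.32% of all genes), and limma-voom called Acan and Sox9 (0.741%), both of which passed the filter through WT-TAC alone. This comparison uses the same WT-TAC libraries as the previous one, so opposite signs are no separate evidence. The 5 genes that did not pass entered limma only without a filter, where the log2 fold change of FPKM + 1 in Fat1-TAC minus WT-TAC was -1.41 for Col2a1, -0.49 for Col9a1, -0.40 for Matn1, -0.09 for Matn3 and -0.53 for Hapln1, and none of them was called, Col9a1 because the change on this scale was below 1.5-fold. A fit with limma-voom on recovered fragments and no filter was added after the data were seen. In that fit the log2 fold change was -6.53 ± 1.01 for Col2a1, -5.05 ± 0.61 for Col9a1 and -3.63 ± 1.09 for Hapln1, on values that depend on the small count added to 0. This fit called Acan, Col2a1, Col9a1, Matn1 and Sox9 as lower there (1.74% of all genes) and Acan and Matn1 as higher in WT-TAC minus WT-Sham (0.860%).

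**Figure D3:**
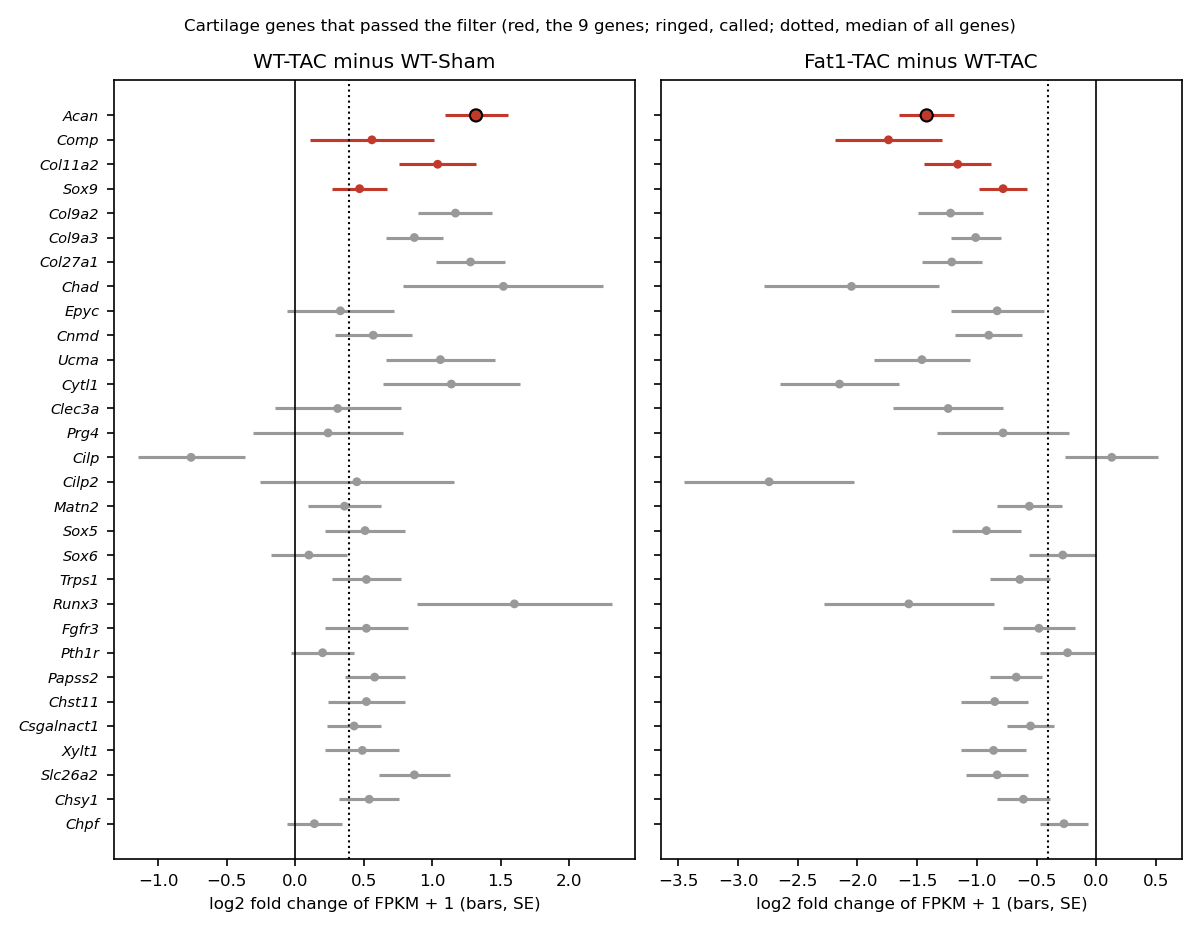
Log2 fold change of FPKM + 1 (x axes) for the cartilage genes that passed the filter, 4 of the 9 genes (red) and 26 others (grey), in WT-TAC minus WT-Sham (left) and Fat1-TAC minus WT-TAC (right). Bars are standard errors, the dotted line is the median of all genes tested (0.39 and -0.40), and a ring marks the only called gene, Acan.

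The next comparisons do not contain the WT-TAC libraries, but the values of all 8 libraries were known when the list was drawn up. Between the genotypes after sham, Fat1-Sham minus WT-Sham, all 4 tested genes had negative log2 fold changes: -1.31 ± 0.45 for Comp, -0.35 ± 0.28 for Col11a2, -0.22 ± 0.20 for Sox9 and -0.11 ± 0.23 for Acan. None was called by limma (adjusted p = 1.0 for each), and 0% of all genes were. At an unadjusted p under 0.05 limma had 1 of the 4, Comp, and 1.25% of all genes. The fit of fragments without a filter called none of the 9 either and had 3 at that level, Comp, Col9a1 and Hapln1, compared with 2.30% of all genes. For Col9a1 this rests on 5 fragments in WT-Sham against 0 in Fat1-Sham, and for Hapln1 on 42 against 6. The genes were chosen with these values known, so nothing is read from their p-values or from these counts.

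Pressure overload in fat-1 hearts, Fat1-TAC minus Fat1-Sham, gave log2 fold changes of 0.22 ± 0.28 for Col11a2, 0.14 ± 0.45 for Comp, 0.01 ± 0.23 for Acan and -0.09 ± 0.20 for Sox9. None was called by limma (adjusted p = 1.0 for each), where 0.00692% of all genes were called as higher, and none had an unadjusted p under 0.05 in either fit. On the scale of log2(FPKM + 1) a gene as low as Acan was here can hardly move, so its count is the better guide. Acan was counted in 7 and 2 fragments after sham and 4 and 6 after TAC, so its order between these groups is not resolved.

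The difference between the TAC responses of both genotypes was negative in all 4 genes, at -1.31 ± 0.32 for Acan, -0.82 ± 0.40 for Col11a2, -0.56 ± 0.28 for Sox9 and -0.42 ± 0.64 for Comp. It contains the WT-TAC libraries and had a median of -0.37 over all genes. None of the 4 was called by limma or limma-voom, where limma called 0.0623% of all genes as lower. At an unadjusted p under 0.05 limma had Acan and 7.26% of all genes. Acan passed the filter through WT-TAC alone, so nothing is read from this p-value. After scaling the difference was -0.48 for Col11a2, -0.31 for Sox9 and -0.01 for Comp.

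Other genes of cartilage were taken from 3 lists, of which 35 of 37 genes were in the table and 26 were tested. None was called by limma or limma-voom in WT-TAC minus WT-Sham or in Fat1-TAC minus WT-TAC. At an unadjusted p under 0.05 limma had 7 of the 26 in the first, compared with 27.5% of all genes. In the second it had 17 of the 26, compared with 29.4%. Both counts include Col9a2 and Col9a3, which passed the filter through WT-TAC alone. The lists were also chosen with earlier results known, so nothing is read from these counts. Of the 26, 25 had a positive log2 fold change in the first (median 0.52) and 25 a negative one in the second (median -0.84), the exception in both being Cilp, cartilage intermediate layer protein, which the heart also makes. After scaling, 23 of them were tested, of which 16 had a positive log2 fold change in the first (median 0.17) and 19 a negative one in the second (median -0.42), so that 7 and 4 genes pointed the other way. Both WT-TAC libraries were above the other 6 for 21 of the 35 genes, but for 8 after scaling by the median of ratios. This held for 33.3% of all listed genes, and for 14.7% after scaling.

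Among the other matrix genes, Col10a1 came closest to the pattern of Col2a1. It encodes type X collagen, which marks hypertrophic chondrocytes, and was found at 0.387 FPKM in WT-TAC1 and at 2.44 FPKM in WT-TAC2, while the other 6 libraries were listed at 0. All of its 161 fragments lay in WT-TAC. Snorc, a small chondrocyte proteoglycan, had 19 of its 20 fragments there, at 0.0974 FPKM in WT-TAC1 and 1.93 FPKM in WT-TAC2. WT-TAC1 was thus close to the 0.0910 FPKM of Snorc in WT-Sham2.

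The partner chains of type IX collagen were higher in WT-TAC and present at a low level in all libraries. Col9a2 was at 1.31 and 2.69 FPKM in the WT-TAC libraries and between 0.147 and 0.339 FPKM in the others (log2 fold change in WT-TAC minus WT-Sham 1.17 ± 0.27, adjusted p = 0.159). Col9a3 was at 1.28 and 1.73 FPKM against 0.175 to 0.404 FPKM (0.87 ± 0.21, adjusted p = 0.175). Col27a1, a fibrillar collagen of cartilage, was at 5.44 and 4.67 FPKM against 1.24 to 2.06 FPKM (1.28 ± 0.25, adjusted p = 0.118). In each of these genes the WT-TAC libraries did not overlap with the rest, and the limma adjusted p missed the cutoff. Col9a2 and Col9a3 passed the filter through WT-TAC alone and had to differ, so nothing is read from their p-values.

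Regulators and enzymes differed little from the matrix genes in their median change in WT-TAC minus WT-Sham. Sox5, which acts together with SOX9, was at 1.99 and 2.32 FPKM in the WT-TAC libraries and between 0.393 and 1.68 FPKM elsewhere. Its partner Sox6 overlapped between the groups, at 4.48 and 7.62 FPKM in the WT-TAC libraries and 4.28 to 6.28 FPKM elsewhere, and its log2 fold change was negative after scaling. The median log2 fold change in WT-TAC minus WT-Sham was 0.52 for 6 regulators and 0.52 for 7 enzymes of chondroitin sulfate synthesis. It was 0.57 for 13 matrix genes and 0.39 for all genes. In Fat1-TAC minus WT-TAC these medians were -0.56, -0.67, -1.21 and -0.40. Both WT-TAC libraries were above the other 6 for 5 of 8 regulators, 7 of 8 enzymes and 9 of 19 matrix genes. After scaling it was 1, 3 and 4 of them. This held for 33.3% of all listed genes, and for 14.7% after scaling. Runx3 was at 12.3 FPKM in WT-TAC1, the library with the thymocyte genes, and at 1.26 FPKM in WT-TAC2, and is also a gene of T cells.

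Markers of neighbouring connective tissues were also looked up. Of the bone genes, Ibsp, Sp7, Dmp1 and Phex stayed at or below 0.305 FPKM in every library. Phex had 20 and 22 fragments in the WT-TAC libraries and 0 to 5 elsewhere, and Ibsp had 11 and 3 fragments there and 0 or 1 elsewhere. Of 7 bone genes in the table, 3 (Phex, Ibsp and Spp1) were above the other 6 libraries in both WT-TAC libraries, also after scaling. This held for 33.3% of all listed genes, and for 14.7% after scaling. Alpl, which is not limited to bone, was at 18.4 to 43.3 FPKM, lowest in WT-TAC1. Spp1, osteopontin, which macrophages also make, was at 6.78 and 4.71 FPKM in the WT-TAC libraries and 0.476 to 2.53 FPKM elsewhere. Bglap, osteocalcin, was not analysed here. Tnmd, the tendon marker tenomodulin, was between 0 and 0.592 FPKM, highest in WT-Sham2. The summed level of 6 activated fibroblast genes was 496 and 485 FPKM in the WT-TAC libraries, 443 FPKM in WT-Sham2 and 211 to 271 FPKM in the other 5. Of the proteoglycans of the aggrecan family used outside cartilage, Vcan, versican, which is made in heart valves, was highest in WT-Sham2 at 10.0 FPKM, with 6.93 and 7.80 FPKM in the WT-TAC libraries.

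Several cartilage genes shared a pattern over libraries. Acan, Col2a1, Matn1 and Col10a1 were highest in WT-TAC2, next in WT-TAC1, and at most 8.98% of the highest library elsewhere. Scgb1a1, the secretoglobin that defines club cells, had the same leading order, at 1555 FPKM in WT-TAC2, 707 FPKM in WT-TAC1 and at most 33.1 FPKM elsewhere. The basal cell keratin Krt5 was at 47.3 FPKM in WT-TAC1, at 2.47 FPKM in WT-TAC2 and at 0.0257 FPKM or 0 in the others, and so had the reverse order of the WT-TAC libraries, as had Krt14 and Trp63. Krt15, the remaining gene of the basal cell list, was at 6.46 FPKM in WT-TAC1, at 17.2 FPKM in WT-TAC2 and at 0 in the others, the order of Acan. In Fat1-Sham1, the library with Scgb1a1 at 33.1 FPKM and the alveolar gene Sftpc at 29.9 FPKM, Acan was at 0.0791 FPKM, Col2a1 was found in 1 fragment, and Col9a1, Matn1, Matn3 and Col10a1 were listed at 0. In that library Scgb1a1 was at 2.13% of its highest level, Acan at 3.57% and Col2a1 at 1.35%. Col9a1, Matn1 and Matn3 had at most 17 fragments in a library, so their counts of 0 cannot tell such a share from none. Sftpc was at 74.7 FPKM in WT-TAC1 and at 0.138 FPKM in WT-TAC2, where Acan, Col2a1, Matn1 and Matn3 were higher than in WT-TAC1. Another alveolar gene, Sftpa1, was at 7.70 FPKM in WT-TAC1, 3.52 FPKM in WT-TAC2, 3.82 FPKM in Fat1-Sham1 and 0 in the other 5. The part of airway and lung tissue in these levels was not tested.

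WT-TAC1 carried the thymocyte and skeletal muscle genes as well. In WT-TAC2 the thymocyte sum was 0.445 FPKM, and 7 of the 9 cartilage genes, all but Col11a2 and Sox9, were higher there than in WT-TAC1. Col11a2 and Sox9 were highest in WT-TAC1 and kept 20.3 to 44.8% and 31.6 to 55.4% of that level in the 6 libraries outside WT-TAC. The part of thymus and skeletal muscle was not tested. Adipocyte genes also had their highest sums in WT-TAC, 297 and 379 FPKM, compared with 2.17 to 131 FPKM elsewhere. The part of adipose tissue was not tested.

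Comp and Hapln1 were high in WT-Sham2 as well as in both WT-TAC libraries. Cilp2, Clec3a, Cytl1, Chad and Prg4 did the same, with WT-Sham2 above WT-Sham1 by 4.30-fold in Cilp2, 4.21-fold in Clec3a, 2.91-fold in Cytl1, 14.0-fold in Chad and 3.94-fold in Prg4. Of the other cartilage genes described first, Acan was higher in WT-Sham2 by 2.80-fold, Col9a1 by 2.67-fold and Col11a2 by 2.13-fold. Comp was higher there by 2.78-fold, while Sox9 differed 1.06-fold between these libraries. The ratio rests on 21 fragments against 5 in Acan and on 4 against 1 in Col9a1, where it is not resolved. In Comp it rests on 753 against 181. Myl7, the atrial myosin light chain, was at 456 and 1945 FPKM in WT-Sham1 and WT-Sham2, at 1035 and 1097 FPKM in WT-TAC1 and WT-TAC2, at 602 FPKM in Fat1-Sham1 and at 9.62 to 18.3 FPKM in the other 3 libraries. Bmp10, also of the atrial list, had another order, at 8.63 FPKM in WT-Sham1, 0.0735 FPKM in WT-Sham2, 45.7 and 28.6 FPKM in the WT-TAC libraries, 70.5 FPKM in Fat1-Sham1 and at most 0.0797 FPKM in the other 3. Cilp2 had the order of Myl7 except that Fat1-TAC1 and Fat1-TAC2 changed places, at 0.119 to 0.345 FPKM in those 3 libraries and 2.41 to 10.3 FPKM in the other 5. Comp kept 17.0 to 27.3% of its highest level in the libraries where Myl7 was below 1% of its own. The part of atrial or valve tissue was not tested.

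**Figure D4:**
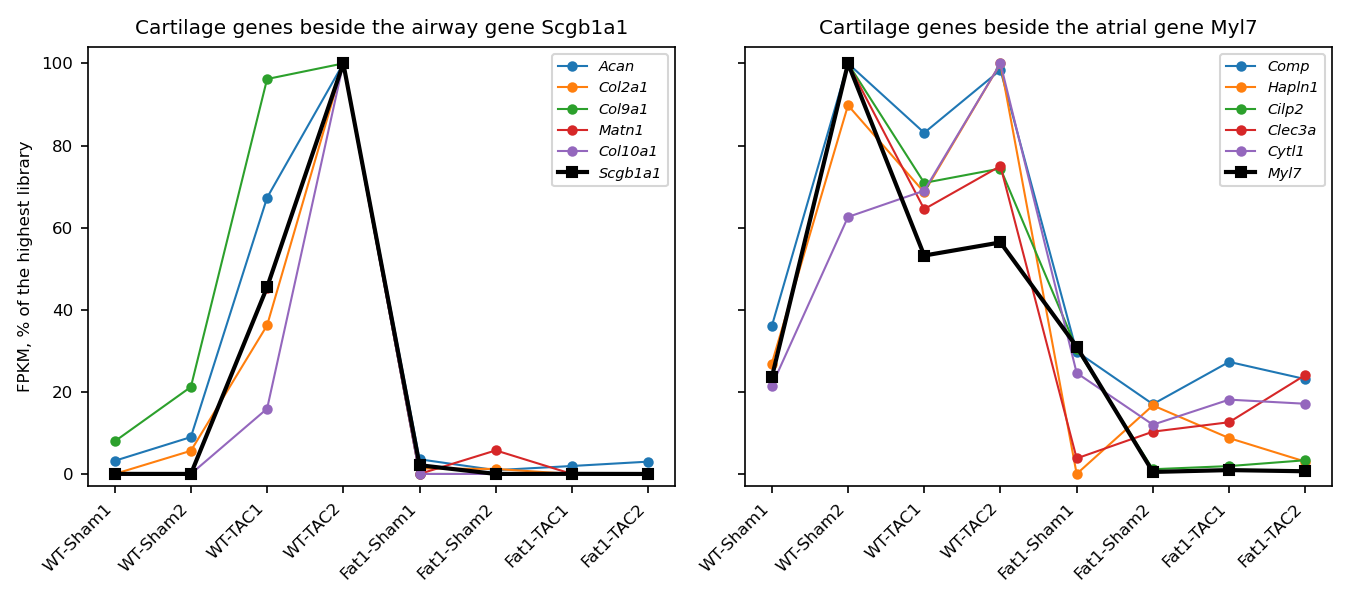
FPKM of cartilage genes in each library (y axis, % of the highest library of that gene), beside the club cell gene Scgb1a1 (left, black) and the atrial gene Myl7 (right, black). Lines only join the values of a gene, and libraries have no order. The genes on the left are near 0 outside WT-TAC, except for Col9a1 in WT-Sham2 (21.2%), and those on the right are also high in WT-Sham2.

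The genes whose profile was most like the mean of the 9 were Serpinb8, Ptprd, Cd14, Sgms2 and Clmn. Likeness was the root mean square difference of log2(FPKM + 1), centred per gene, over the 8 libraries, and was 0.087, 0.087, 0.091, 0.097 and 0.10. The mean profile was 0.52 and 0.70 in WT-TAC1 and WT-TAC2, 0.13 in WT-Sham2, -0.19 in WT-Sham1 and -0.33 to -0.26 in the fat-1 libraries. None of these 5 is a cartilage matrix gene. Serpinb8, for example, was at 2.78 and 2.87 FPKM in the WT-TAC libraries, at 1.30 and 2.06 FPKM in the WT-Sham libraries and at 1.07 to 1.45 FPKM in the fat-1 libraries.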

How the data were processed

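RNA was extracted from hearts, and libraries were made with a NEBNext Ultra kit and sequenced on an Illumina HiSeq. The submitters' processing notes name HISAT2 and the builds mm10 and GRCm38; the counting program and the strand setting are not given in the sources used here. The authors deposited FPKM values for 25929 genes, of which 25852 carry a symbol. The log2 of FPKM + 1 was taken, the 14442 genes that reached 1 FPKM in 2 libraries were kept, and limma 3.58.1 (R 4.3.3; lmFit, eBayes with trend) was fitted to all 8 libraries with 4 group means, with Benjamini-Hochberg adjustment over all genes tested. A 2 against 2 comparison of 1 gene cannot give an exact two-sided permutation p below 0.33, so none is given.

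Fragments were recovered as the whole numbers that the FPKM values of a gene give in all libraries at 1 length (tolerance 0.001): the median annotated transcript length for 41.6% of genes, and the smallest length giving whole numbers for 57.2%, where true counts could be whole multiples. None of 417 genes with randomised values gave whole fragments. The limma fit was also run on simulated data with the same spread in every library. The wider spread within WT-TAC was not simulated, so nothing is read from that run here. Alternatives were scaling, filters, the pseudocount, a replicate block, fits of only the 2 groups compared, limma-voom on fragments and leaving out each library. The rule for named genes took all 9 genes, genes of the marker lists at the ends of their list, defining markers and the 5 nearest profiles. The genes and lists were chosen with earlier results of these data known. Mia, Nkx3-2, Bglap and Cthrc1 were not analysed here.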

Additional observations from a re-analysis of the deposited data

Results flagged for a closer look

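In Col2a1 and Sox9 and, of the other cartilage genes, in Cnmd and Xylt1, both WT-TAC libraries were above both WT-Sham libraries while both Fat1-TAC libraries were below both Fat1-Sham libraries. The share of all genes with this order was not counted, so the pattern is not read as particular to these genes. The interaction in limma was -0.56 for Sox9, -1.10 for Cnmd, which encodes chondromodulin, and -0.71 for Xylt1, which starts chondroitin sulfate chains (adjusted p = 0.495 for each), so the difference did not pass the cutoff. Col2a1 was tested only without a filter (-1.35, adjusted p = 0.525), and its order in fat-1 hearts rests on 1 fragment in each Fat1-Sham library against 0 in both Fat1-TAC libraries.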

How the results depend on the processing

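The call of Acan in WT-TAC minus WT-Sham was made with and without the filter on low values (adjusted p 0.0808 and 0.0234, limma; 0.0234 to 0.491 over the alternatives). None of the 9 genes was called there after scaling, with a filter of 1 FPKM in 1 library or with a pseudocount of 0.1. Nor was any called with only the 2 groups compared, with the replicate block or with limma-voom. Acan was no longer among the genes tested after scaling, and neither Acan nor Sox9 without either WT-TAC library, so that these settings say nothing of their calls. In Fat1-TAC minus WT-TAC the number called was 0 under the same settings, except 2 (Acan and Sox9) with limma-voom. Of the other cartilage genes, 1 (Col9a3) was called in WT-TAC minus WT-Sham without a filter and 0 to 8 when a library was left out. In Fat1-TAC minus WT-TAC it was 2 (Col9a2 and Col9a3) without a filter, 1 (Cilp2) with only 2 groups and 0 to 14 when a library was left out. Counts called with a library left out are not given, since 1 library then stands for its group and is assumed to vary like the others. Comp turned to -0.14 in WT-TAC minus WT-Sham and to 0.28 in the interaction without WT-Sham1, and to -0.22 in Fat1-TAC minus Fat1-Sham without Fat1-Sham2. In that comparison Acan turned to -0.03 without Fat1-Sham2 and to -0.01 without Fat1-TAC2, and Hapln1 to 0.36 with limma-voom without a filter, from values near 0. With 1 library left out, Comp ranged from -0.14 to 1.26 in WT-TAC minus WT-Sham, from -1.13 to 0.28 in the interaction and from -0.22 to 0.50 in Fat1-TAC minus Fat1-Sham, where Acan ranged from -0.03 to 0.05. The causes were not tested. Of the fold changes of the 9 genes under alternatives, 260 kept direction and side of the cutoff, 21 lost a call, 9 gained one and 6 changed sign. The tally includes fits with a library left out, so nothing is read from the calls lost or gained. Samples with the same replicate number did not deviate together (r -0.135 to 0.024), so the replicate block pairs numbers only. Depth limits Matn1, Matn3 and Col9a1, with at most 17 fragments in a library.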
